A study of Mus musculus with 7 samples.

Results

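m6A MeRIP-Seq peaks were examined for 39 genes that modulate Notch signaling, serve as cofactors of its transcription complex or are its targets, in regenerating mouse muscle and in C2C12 myoblasts. The genes were taken from a fixed list that left out the receptors, the ligands, Rbpj and Maml1, and were found in the peak tables by symbol, older symbols included. All 39 matched a gene of the mouse RefSeq annotation. Of these, 26 had a peak in at least 1 of the 2 tables, which together named 6144 annotated genes.

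In MeRIP-Seq, mRNA fragments that carry N6-methyladenosine (m6A) are pulled down with an antibody (IP) and sequenced beside the fragments before pulldown (input). The MeRIP-Seq step of the study was made to find mRNAs whose methylation differed during repair of injured muscle, with METTL3, the catalytic subunit of the m6A methyltransferase, deleted in muscle stem cells (MuSCs). The METTL3 cKO mice (Pax7CreERT2; METTL3 flox/flox) and the CTL mice (Pax7CreERT2; METTL3 wt/wt), both on the C57BL/6 background, received tamoxifen for 5 days and then an injection of cardiotoxin (CTX) into muscle, so the CTL mice also carried the Cre driver and the drug. Muscle was taken on day 2, with 1 IP library and 1 input library for each genotype. The age and number of mice are not given in the sources used here. Pax7CreERT2 acts in Pax7-expressing cells, whereas the labels give muscle as the source and muscle stem cell as the cell type, and do not say whether cells were isolated. C2C12, an established line of mouse myoblasts, gave 2 IP libraries and 1 input library. The labels mark both C2C12 IP libraries as knockout and the C2C12 input as normal, and the study also lowered METTL3 in this line by knockdown. Whether the sequenced cells were depleted of METTL3 was not settled by the sources used here. The labels also describe growth in 15% fetal bovine serum and differentiation for 3 days in 2% horse serum without saying which stage was sequenced.

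Each table holds 1 row per peak for all libraries of its kind, with no value for a single library and no read counts. Depth is therefore unknown, genotypes were not compared, and intervals given here are 95% Wilson intervals that cover counting error only. Without values for single libraries or read counts, the knockout could not be checked from these data. Mettl3 itself had 0 peaks in either table, which does not bear on its deletion. The muscle table lists 5412 peaks, each with a value of the authors' differential test between the genotypes, and leaves out peaks that did not pass that test. A gene missing from the muscle table may therefore still have a peak and be methylated in muscle. The C2C12 table lists 5433 peaks without any measure of their height.

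Of the marker genes of MuSCs and myoblasts, 3 of 7 were listed in muscle (Pax7, Myod1 and Myog) and 4 of 7 in C2C12 (Pax7, Myod1, Itgb1 and Cdh15). Muscle also listed 1 of 6 fibre genes (Ttn), 2 of 6 leukocyte genes (Ptprc and Itgam), 1 of 4 endothelial genes (Cdh5) and 2 of 4 genes of fibro-adipogenic cells (Pdgfra and Col1a1). In C2C12, none of the fibre, leukocyte and endothelial genes was listed, and 3 of 4 fibro-adipogenic genes were (Pdgfra, Col1a1 and Col3a1). Over all protein-coding genes, 16.9% were listed in muscle and 17.6% in C2C12, and marker lists this small give no more than a count. A listing is no level of expression, and the part of other cell types in the muscle peaks was not tested.

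Notch receptors are cut by ADAM proteases and then by gamma-secretase after a ligand binds, and the freed intracellular domain enters the nucleus, joins RBPJ and Mastermind-like proteins and turns on genes such as those of the Hes and Hey families. Glycosyltransferases, ubiquitin ligases and endocytic adaptors set how well the receptor signals, and corepressors hold RBPJ targets silent when it does not. In muscle, Notch signaling is known for keeping MuSCs quiescent and for holding back their differentiation.

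In muscle, 10 of the 39 members were listed (25.6%, 95% interval 14.6% to 41.1%), against 16.9% of the 21900 annotated protein-coding genes. In C2C12, 19 of the 39 were listed (48.7%, 33.9% to 63.8%), against 17.6% of protein-coding genes. The C2C12 interval lay above the background, and the muscle interval included it. Because the members were chosen with earlier results of these data known, neither interval is a test against the background. With C2C12 peaks of the median length or longer, 11 of the 39 were listed (28.2%, 16.5% to 43.8%), against 9.96% of protein-coding genes. Whether the lists differ from other genes of like expression was not tested. The listed members were longer genes, with a median span of 32674.5 bp for the 26 with a peak and 10425 bp for the 13 without. Over protein-coding genes the median was 25255 bp for the 5961 listed in either table and 14582 bp for the 15939 in neither. All 39 members had a median of 23713 bp and all 21900 genes one of 17146 bp.

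The members in both tables were Dtx4, Spen and Ctbp1. These 3 made up 30% of the 10 in muscle (10.8% to 60.3%) and 15.8% of the 19 in C2C12 (5.52% to 37.6%). Among protein-coding genes, the 1600 in both tables were 43.2% of the muscle list and 41.5% of the C2C12 list. The share of C2C12-listed members that were also listed in muscle, 15.8%, was thus below the 41.5% of all genes. The members were chosen with earlier results known, so the interval is no test of this difference. The interval of the share of muscle-listed members also listed in C2C12 included the share of all genes. The muscle list holds only peaks that passed the differential test, and the C2C12 list carries no such test. A member listed in C2C12 only may therefore still have a peak in muscle. Listed in muscle only were Adam10, Mib1, Itch, Dtx3, Numbl, Kat2b and Nrarp. Listed in C2C12 only were Adam17, Ncstn, Rfng, Pofut1, Dtx2, Maml2, Maml3, Snw1, Kat2a, Ctbp2, Tle1, Tle3, Hes1, Hes2, Hes6 and Heyl. Neither table listed Numb, Psen2, Aph1a, Psenen, Lfng, Mfng, Mib2, Neurl1a, Dtx1, Hes3, Hes5, Hey1 and Hey2.

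**Figure D1:**
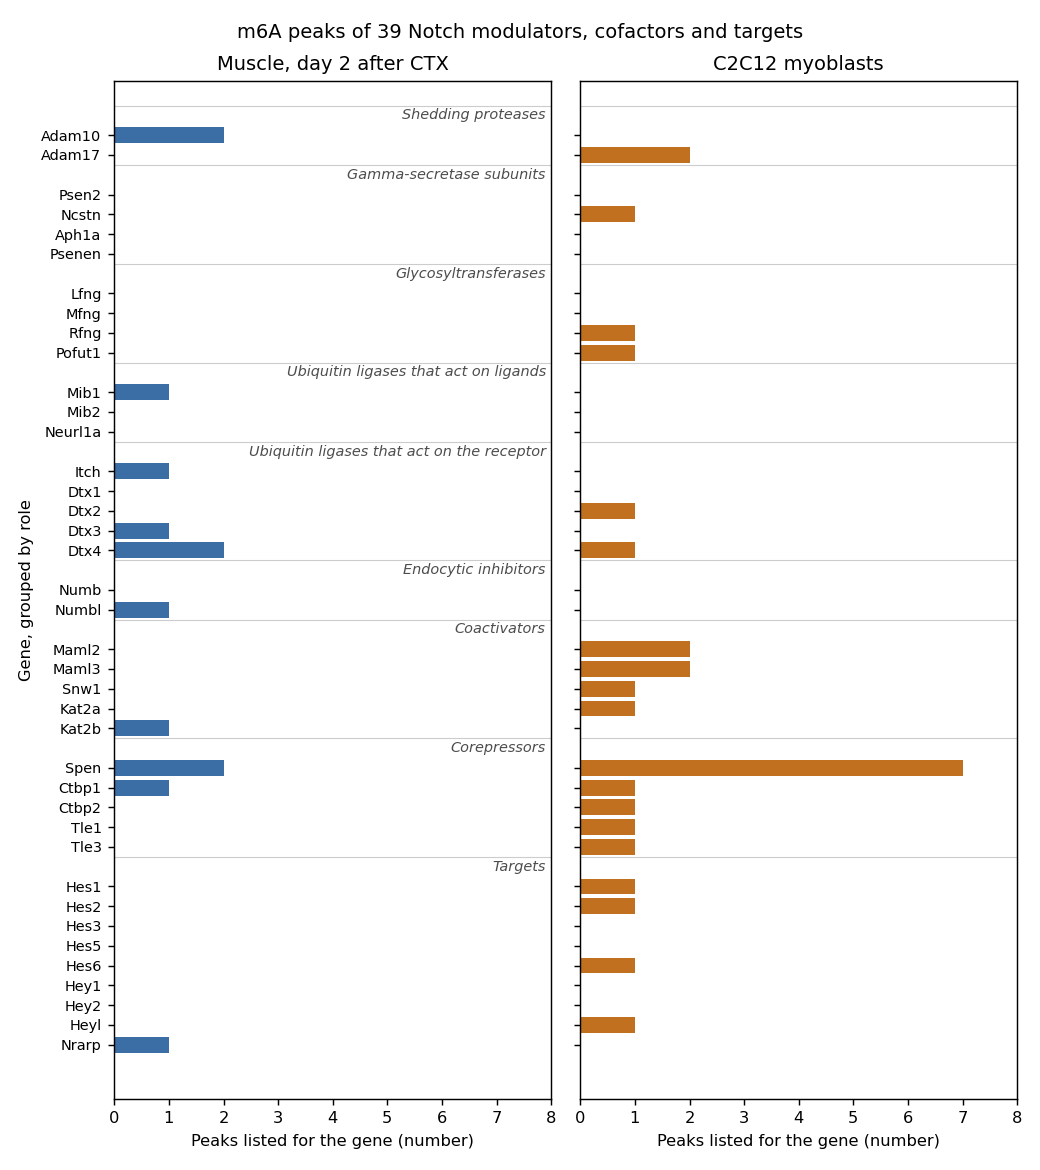
Number of m6A peaks listed for each of the 39 members (horizontal axis) in muscle at day 2 after CTX (left, blue) and in C2C12 myoblasts (right, orange), with the genes grouped by role on the vertical axis. Bars show 13 peaks in muscle and 28 in C2C12, and Spen has the longest bar in C2C12, with 7 peaks.

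The 13 member peaks in muscle were mostly of low fold enrichment. Fold enrichment is the ratio of IP to input signal that the authors' peak caller gave a peak, and its median over all 5412 peaks was 12.9. Only 3 of the 13 member peaks (23.1%, 8.18% to 50.3%) reached that median, both peaks of Spen and 1 of Adam10, and the interval just included the 50.1% of all peaks. Nrarp, at 12.6, lay just under it. Taking the strongest peak of each gene, the median over the 10 listed members was 8.40, with a range from 2.91 to 256, and the median over all 3983 genes of the table was 19.3. Without peaks under the median of all peaks, 2 of the 39 members were still listed in muscle (5.13%, 1.42% to 16.9%), against 10.1% of protein-coding genes, and their median was 150.

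**Figure D2:**
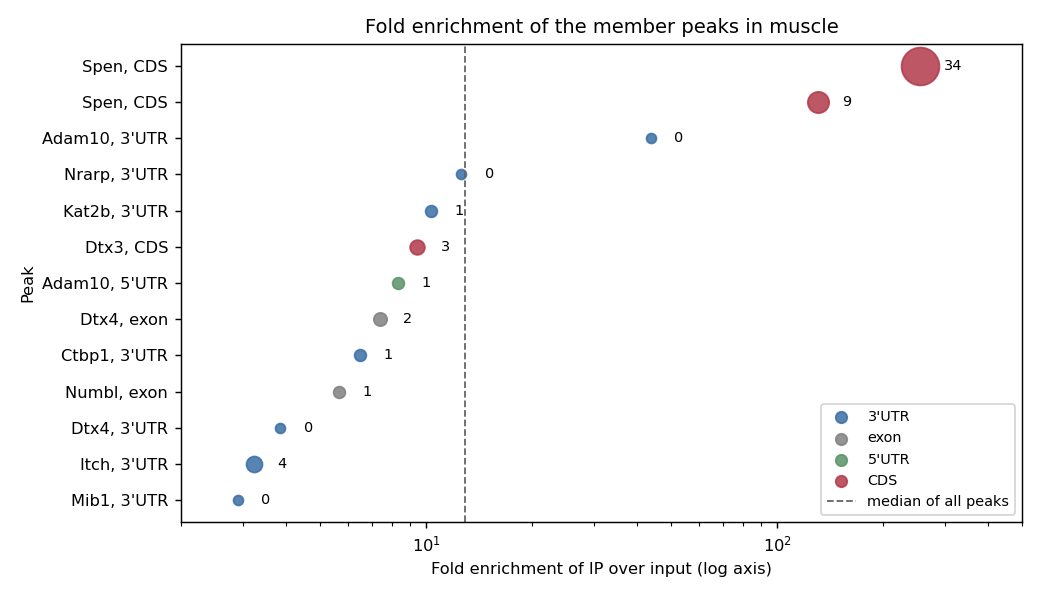
Fold enrichment of IP over input (log axis) of the 13 member peaks in muscle, sorted on the vertical axis, with colour for the annotated class, and point size and the printed digit for the number of GGAC sites in the peak. The dashed line is the median of all peaks, 12.9, and 3 member peaks lie to its right.

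The authors also listed the positions of GGAC, a common form of the motif that METTL3 methylates, within each muscle peak. At least 1 GGAC was listed in 9 of the 13 member peaks (69.2%, 42.4% to 87.3%), compared with 70.6% of all peaks. The member peaks held 56 sites in total, of which 43 (76.8%) were in Spen. Per 1000 bp of peak there were 5.17 sites over all member peaks, 4.17 without Spen and 4.63 over all peaks of the table. A listed site is a match of letters in a peak and not a measured methylated base.

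By annotation, 7 of the 13 member peaks in muscle were in a 3'UTR (53.8%, 29.1% to 76.8%), compared with 48.0% of all peaks. Coding sequence (CDS) held 3 of them, against 31.9% of all peaks, a 5'UTR held 1, against 5.14%, and 2 were annotated as exon without a finer class, against 14.9%. In C2C12, coding exons held 15 of the 28 member peaks (53.6%, 35.8% to 70.5%), compared with 52.6% of all 5433 peaks. The 3'UTR held 11 (39.3%, 23.6% to 57.6%), compared with 25.9% of all. No member peak was in a 5'UTR, where 6.29% of all C2C12 peaks lay, and the interval for 0 of 28 reached 12.1%. The classes of the member peaks thus lay within counting error of all peaks in both tables, and introns held 1 member peak in C2C12, against 12.4% of all peaks there.

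Among the proteases that shed the receptor's outer part, Adam10 was listed in muscle and Adam17 in C2C12. The Adam10 mRNA encodes the protease that makes this cut after ligand binding, and it had 2 peaks at opposite ends of the transcript (GRCm38, plus strand). The stronger lay in the 3'UTR at chr9:70778102-70778522, 1707 bp before the end of the annotated gene. Its fold enrichment was 43.7, which ranked 1455 among the 5412 peaks, with a peak p-value of 1.0e-204 and 0 GGAC sites. The other lay in the 5'UTR at chr9:70678997-70679147, with a fold enrichment of 8.30, a peak p-value of 1.3e-15 and 1 GGAC site.

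This 5'UTR peak was the only member peak that reached a RefSeq promoter window, a table that covers 28 of the 39 members. It began 15 bases after the transcription start site. Its first 30 bases, at chr9:70678997-70679026, are shown because they are the part of a member peak that could be read from the reference used here. They are mostly purines and contain 0 copies of GGAC.
Adam10, start of the 5'UTR peak: gggaagggaggaaggaagaggccgaggggg
The A of the listed GGAC lay further on, 134 bases after the first base of the peak.

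Adam17, the related sheddase best known for releasing TNF from the cell surface, had 2 peaks in C2C12. A peak of 350 bp in a coding exon was centred 48216 bases from the transcription start, and a peak of 261 bp in the 3'UTR was centred 49254 bases from it. Both were therefore in the last part of the gene, whose annotated span is 50124 bp.

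Of the 4 gamma-secretase subunits, only Ncstn, the subunit that docks the substrate, had a peak, in C2C12. Psen2, which carries the active site, and the subunits Aph1a and Psenen were in neither table. Of the 4 members that are glycosyltransferases of the receptor, Rfng and Pofut1 were listed in C2C12, and Lfng and Mfng in neither table. POFUT1 adds the O-fucose that the Fringe enzymes, RFNG among them, extend. Of these 8 genes, 3 were listed in C2C12 and 0 in muscle, beside 17.6% and 16.9% of all protein-coding genes, and a group this small gives no more than a count.

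Of the 3 members that are ubiquitin ligases and act on Notch ligands, allowing them to be taken up, Mib1 had a muscle peak, and Mib2 and Neurl1a had none in either table. Of the 5 grouped as acting on the receptor, muscle listed Itch, Dtx3 and Dtx4, and C2C12 listed Dtx2 and Dtx4. The shares over all protein-coding genes were 16.9% in muscle and 17.6% in C2C12. Itch marks the receptor for breakdown, and several of the Deltex proteins (Dtx), though not all, bind its intracellular part. Among the endocytic inhibitors, Numbl was listed in muscle and its relative Numb in neither table.

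Dtx4 had 2 peaks in muscle (GRCm38, minus strand). The stronger, at chr19:12469387-12469656, was annotated as exon and had a fold enrichment of 7.38, a peak p-value of 6.3e-11 and 2 GGAC sites. The weaker, in the 3'UTR at chr19:12467207-12467327, had a fold enrichment of 3.84, a peak p-value of 5.5e-04 and 0 GGAC sites. In C2C12 its single peak of 359 bp was in a coding exon, centred 9611 bases from the transcription start. The muscle peaks began 32523 and 34852 bases from the 5' end of the annotated gene, so no peak of Dtx4 was shared by position. The tables may rest on different transcripts of the gene, which was not tested.

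The 5 members Numbl, Mib1, Itch, Dtx3 and Kat2b had 1 muscle peak each. Their fold enrichments ran from 2.91 to 10.3 with a median of 5.64, all below the median of the table, and their peaks covered 210 to 628 bp. In this group, 3 peaks were in a 3'UTR, 1 in CDS and 1 in an exon without a finer class. GGAC sites ranged from 0 to 4 in a peak. Listed in C2C12 with 1 peak each and absent from muscle were 9 members with no target among them, Ncstn, Rfng, Pofut1, Dtx2, Snw1, Kat2a, Ctbp2, Tle1 and Tle3. Their peaks were 211 to 435 bp long, with 6 in the 3'UTR and 3 in coding exons.

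Of the 5 coactivators among the members, 4 were listed in C2C12 and 1 in muscle, beside the 17.6% and 16.9% of all protein-coding genes. Outside the members, the coactivator genes Maml1, Crebbp and Ep300 were listed in both tables. Maml2 and Maml3 belong to the Mastermind-like family, which bridges the Notch intracellular domain and RBPJ to histone acetyltransferases. Maml2 had a coding-exon peak of 252 bp centred 334 bases from the transcription start and another of 305 bp at 86324 bases. Maml3 had its peaks close together far from the start, with a coding-exon peak of 293 bp at 414637 bases and a 3'UTR peak of 246 bp at 415682 bases. Snw1 encodes a coregulator that joins the RBPJ complex. Kat2a and Kat2b encode related histone acetyltransferases and split between the tables, Kat2a in C2C12 and Kat2b in muscle.

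The 5 corepressors among the members were listed in C2C12, where 17.6% of all protein-coding genes were, with 11 of the 28 member peaks, of which 7 were those of Spen. In muscle, which listed 16.9% of protein-coding genes, 2 of the 5 were listed, with 3 of the 13 peaks. Of the related genes outside the members, Tle2, Tle4, Tle6, Cir1 and Hdac2 had 0 peaks in C2C12, and Tle5 and Hdac1 were listed there. Ctbp1 and Ctbp2 encode C-terminal binding proteins, and Tle1 and Tle3 encode Groucho-type corepressors that the Hes proteins recruit. Of these, only Ctbp1 was also listed in muscle. Its muscle peak lay in the 3'UTR at chr5:33248320-33248767 (GRCm38, minus strand), with a fold enrichment of 6.48, a peak p-value of 1.0e-75 and 1 GGAC site. It spanned 26237 to 26684 bases from the 5' end of the gene. The C2C12 peak of Ctbp1, 228 bp in the 3'UTR, was centred 26530 bases from the transcription start and so fell inside that stretch.

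Over both tables, Spen carried more peaks, covered bases and GGAC sites than any other member. It encodes a large RNA-binding protein that attaches to RBPJ and brings corepressor complexes to Notch target genes. Of the 2 muscle peaks, both annotated as CDS on the minus strand of chromosome 4 (GRCm38), the stronger spanned chr4:141473354-141484681 and had a fold enrichment of 256. It ranked 318 among the 5412 peaks, and the gene ranked 313 among 3983 genes by its strongest peak. The other spanned chr4:141495867-141538477 with a fold enrichment of 131, rank 699. The peak p-value of both was listed as 0, as it was for 929 peaks of the table.

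The stronger Spen peak covered 6295 bp in 4 blocks, of which a single block at chr4:141478646-141484681 made up 6036 bp. All of its 34 GGAC sites were in that block. The other peak covered 1410 bp in 4 blocks and held 9 sites, with 5 in a block of 590 bp, 3 in a block of 483 bp and 1 in a block of 314 bp. The 43 sites of Spen ranked 6 among the genes of the table by number of sites. Per 1000 bp they came to 5.58, compared with 4.63 over all peaks of the table.

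In C2C12, Spen had 7 peaks, a number that 7 genes of the table reached, Spen included. Together they covered 3033 bp, rank 13 of 3953 genes, compared with a median of 341 bp, and made up 33.1% of the 9166 bp covered by all member peaks. Coding exons held 5 of the peaks, the 3'UTR 1 and an intron 1. Their centres lay from 16339 to 69957 bases from the transcription start, within a gene of 70760 bp. Placed by distance from the start of the gene, 3 of the 7 peaks overlapped a block of the muscle peaks. The peak at 21352 bases matched the muscle block at 21136 to 21618 bases, the peak at 59523 bases lay within the long block at 53963 to 59998 bases, and the peak at 64506 bases overlapped the block at 64334 to 64434 bases. The C2C12 peaks at 16339, 17190, 66858 and 69957 bases had no counterpart among the listed muscle peaks.

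**Figure D3:**
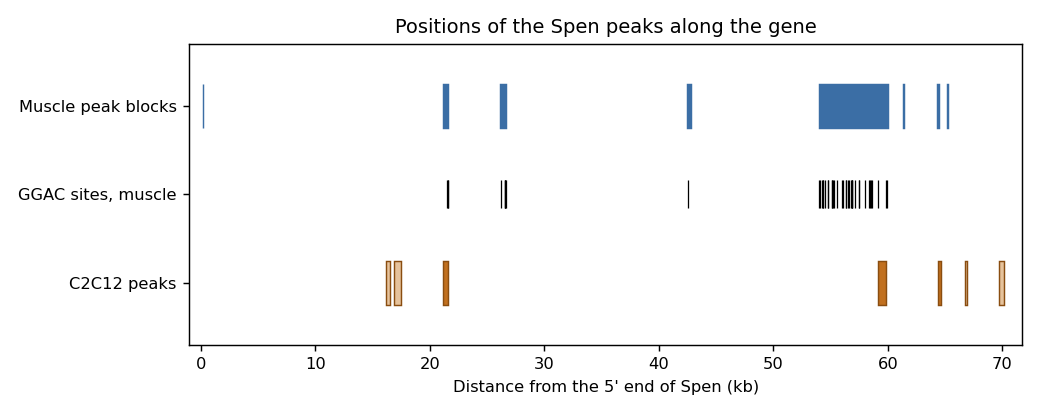
Positions along Spen as distance in kb from the 5' end of the gene, with the 8 blocks of the 2 muscle peaks (top, blue), the 43 GGAC sites listed in them (middle) and the 7 C2C12 peaks (bottom; dark orange where a peak overlaps a muscle block). The GGAC sites crowd in the block of 6036 bp, and 3 C2C12 peaks line up with muscle blocks.

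By the same measure, 2 of the 3 members in both tables shared a position, Spen and Ctbp1, compared with 53.1% of the 1612 genes that both tables listed. The C2C12 distances come from the authors' table and the muscle distances from the RefSeq gene span, so a gene whose start differs between these annotations could miss a shared position. With RefSeq promoter starts, which Dtx4 lacked, 2 of 2 members shared a position, compared with 60.4% of 1304 genes. Spen had 7 C2C12 peaks and 7705 bp of muscle blocks, which gave it more room for a shared position than most genes. The comparison made no allowance for this.

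Of the 9 targets, 1 was listed in muscle and 4 in C2C12, beside the 16.9% and 17.6% of all protein-coding genes, and 4 were in neither table. Nrarp, whose product destabilises the Notch intracellular domain as negative feedback, was the target listed in muscle. Its peak of 149 bp lay in the 3'UTR at chr2:25182390-25182538 (GRCm38, plus strand), 801 bp before the end of the gene, with a fold enrichment of 12.6, a peak p-value of 1.9e-04 and 0 GGAC sites.

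Of the Hes and Hey repressors, muscle listed 0 of 8, beside 16.9% of all protein-coding genes, and a group this small gives no more than a count. In C2C12, Hes1, the main Notch-driven repressor, had a coding-exon peak of 201 bp centred 2027 bases from the start of a gene of 2440 bp. Hes6, whose product counters HES1, had a coding-exon peak of 377 bp at 112 bases. Heyl had a 3'UTR peak of 218 bp at 14135 bases. The peak assigned to Hes2, of 204 bp, was annotated as upstream and was centred at -2258 bases, before the transcription start, a class that held 107 of the 5433 peaks. It was thus outside the annotated transcript. Hes3, Hes5, Hey1 and Hey2 were in neither table.

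The other genes of the pathway give a comparison. Of the 11 core components, 8 were listed in muscle (Notch1, Notch2, Notch4, Jag1, Jag2, Dll1, Rbpj and Maml1) and 7 in C2C12, and 6 in both. Of 28 further pathway genes, 8 were listed in muscle, 10 in C2C12 and 5 in both. Over all protein-coding genes, 16.9% were listed in muscle and 17.6% in C2C12, and 41.5% of those in C2C12 were also in muscle. The median fold enrichment of the strongest peak was 102 over the 8 core components and 34.0 over the 8 further genes, compared with 8.40 over the 10 members. The median over all genes, 19.3, was reached by 7 of the 8 core components, 5 of the 8 further genes and 2 of the 10 members. Above the 256 of Spen were the histone acetyltransferase genes Crebbp at 604 and Ep300 at 308, the receptor Notch2 at 329 and the ligand Dll1 at 275. The differences between the lists were not tested.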

How the data were processed

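MeRIP-Seq libraries were grouped by the sample labels. The submitters' processing notes name TopHat, MACS2 and mm10, without versions or roles. For muscle, the authors deposited the fold enrichment of each peak, a ratio of IP to input, its p-value, its class and its GGAC positions. The authors also deposited a log2 fold, a p-value and an FDR for the difference between the genotypes, which were not used. The deposited C2C12 table gives positions, class and distance to the transcription start. Of its matched peaks, 9.28% lay inside the GRCm38 span of their gene (muscle 95.6%), so its coordinates were taken to be of another build and are not printed. Columns of single samples left out numbered 0.

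Genes were matched to RefSeq GRCm38.p6 by symbol, for 3811 of 3983 genes in muscle and 3954 of 3970 in C2C12. Muscle blocks on the minus strand were counted from the 5' end of the peak, since 0 of 2068 GGAC sites then fell outside them and 909 did otherwise. Distances in C2C12 refer to the centre of a peak, and the peaks of 99.8% of 1023 genes with more than 1 gave the same start within 2 bases. Every member was named as listed or not. Peaks were given for members at or above the median fold enrichment, in both tables, with 2 or more C2C12 peaks, or among the targets. Members and lists were chosen with earlier results of these data known. Python 3.11.15, pandas 2.3.3, numpy 2.4.6, scipy 1.17.1 and matplotlib 3.10.9 were used. Matching, block order and intervals were tested on simulated data.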

Additional observations from a re-analysis of the deposited data

How the results depend on the processing

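Of 24 alternative settings over 9 results, 19 left the value within 1.5 times the main count or median, or within the interval of the main share. The intervals of the shares are wide, so a share could stay within one and still differ. With the filter on fold enrichment, for example, the 3'UTR share in muscle was 33.3% of 3 peaks in place of 53.8% of 13. With muscle peaks that reached the median fold enrichment of the table, 2 members were listed in muscle in place of 10 and their median fold enrichment was 150 in place of 8.40. With that filter and C2C12 peaks outside introns, 1 member was in both tables in place of 3. With C2C12 peaks at or above the median length of 285 bp, 11 members were listed in place of 19, against 9.96% of protein-coding genes in place of 17.6%. Counted as peaks, the C2C12 coverage of 9166 bp was 28 peaks, a change of unit that was set among the changed results without a comparison of values. The filter on fold enrichment kept 50.1% of all muscle peaks and 3 of the 13 member peaks, and the median after it was taken over peaks chosen by that same value. A peak p-value under 1e-10 kept 7 members in muscle, and without Spen the member peaks in C2C12 covered 6133 bp. These settings were among 5 chosen after seeing the data.

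No paired analysis was possible because each genotype has 1 library of each kind and neither table gives values for single libraries. Leaving out a replicate was not possible for the same reason. Depth is unknown, so a member without a peak is not shown to lack methylation, and the muscle table leaves out peaks that passed no differential test. Peak classes and distances are the authors' own.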
